A study of Mus musculus with 9 samples.

Results

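Oligodendrocytes wrap axons in myelin, a stack of membrane rich in a small set of proteins and lipids. The genes described here belong to that lineage and were chosen as a list of 34 names: 15 of myelin and mature oligodendrocytes, 6 transcription factors, 5 of precursors and newly formed cells, and 8 others that are enriched in oligodendrocytes. They were found through the RefSeq accession of each array probe. Of the 34, 31 had a probe and 30 were measured well enough to be tested, of 12619 genes tested among 16358 with a probe. Ermn, Sox10 and Myrf had no probe matched in this way and were not analysed here, and Enpp6 was too dim.

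The mice were male wild-type C57BL/6J animals aged 8 to 9 weeks. One group had caloric restriction (CR), one had repeated fasting and refeeding (RFR) in which days without food alternated with days of free feeding, and one ate ad libitum (AD) as the control. The CR mice received, over each pair of days, a fixed part of what the RFR mice had eaten. On day 8, 4 mice of each diet were perfused with saline, and amygdala, hypothalamus and prefrontal cortex were dissected from coronal slices. Equal amounts of RNA of the 4 mice were pooled, so every region was measured once per diet, 9 times in all, each on 1 one-colour Agilent array. The 3 regions of a diet came from the same pool of mice. Values below are processed signals on a log2 scale on which 0 is the array's 75th percentile, and a difference of 1 is a 2-fold change. The level of one probe is never set against that of another.

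Oligodendrocytes arise from precursor cells that carry the growth factor receptor encoded by Pdgfra and the surface proteoglycan NG2 encoded by Cspg4. As precursors commit they pass through a stage marked by Gpr17, Enpp6 and Bcas1, and then switch on the myelin genes under transcription factors that include Olig1, Olig2, Sox10, Nkx2-2, Nkx6-2 and Myrf. Myelin is plentiful where fibre tracts run, and precursors are spread through both grey and white matter. In RNA from whole tissue, fewer cells of a type and less RNA per cell cannot be told apart.

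The promoters below were searched for letters that these factors are known to read. Mag, Cnp and Opalin are printed as examples whose windows hold both motifs, and Pdgfra and Cspg4 as precursor genes whose windows hold neither. A link between these letters and the region differences was not tested. Each sequence runs 5′ to 3′ on the gene's strand from 250 bases before to 50 bases after the start of the transcript, from RefSeq on build GRCm38.p6. Capitals mark a SOX core (ACAAAG or ACAATG) or a short form of the MYRF site (CTGGCAC or CTGGTAC), searched on both strands, so that CTTTGT is ACAAAG read on the other strand and GTGCCAG is CTGGCAC read on it.
Mag, a myelin adhesion protein, chr7:30914814-30915113, minus strand, 1 of its 3 windows: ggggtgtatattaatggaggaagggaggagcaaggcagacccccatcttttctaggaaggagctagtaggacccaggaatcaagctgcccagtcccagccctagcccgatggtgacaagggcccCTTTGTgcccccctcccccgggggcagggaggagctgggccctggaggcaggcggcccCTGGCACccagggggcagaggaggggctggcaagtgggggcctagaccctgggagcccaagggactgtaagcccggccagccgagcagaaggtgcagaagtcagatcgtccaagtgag
Cnp, a phosphodiesterase of myelin, chr11:100574689-100574988, plus strand: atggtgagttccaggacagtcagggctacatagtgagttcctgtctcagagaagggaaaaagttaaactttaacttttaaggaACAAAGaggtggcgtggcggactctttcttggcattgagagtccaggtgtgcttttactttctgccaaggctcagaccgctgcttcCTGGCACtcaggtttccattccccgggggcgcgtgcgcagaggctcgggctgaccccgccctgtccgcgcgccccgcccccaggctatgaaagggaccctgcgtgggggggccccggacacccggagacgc
Opalin, a membrane glycoprotein of oligodendrocytes, chr19:41077064-41077363, minus strand: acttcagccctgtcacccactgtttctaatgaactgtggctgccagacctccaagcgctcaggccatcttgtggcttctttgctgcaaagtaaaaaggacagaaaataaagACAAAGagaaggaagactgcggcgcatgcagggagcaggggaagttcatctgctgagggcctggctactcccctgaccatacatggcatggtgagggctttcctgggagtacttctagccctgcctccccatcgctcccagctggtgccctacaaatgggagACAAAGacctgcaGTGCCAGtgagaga
Pdgfra, chr5:75152001-75152300, plus strand: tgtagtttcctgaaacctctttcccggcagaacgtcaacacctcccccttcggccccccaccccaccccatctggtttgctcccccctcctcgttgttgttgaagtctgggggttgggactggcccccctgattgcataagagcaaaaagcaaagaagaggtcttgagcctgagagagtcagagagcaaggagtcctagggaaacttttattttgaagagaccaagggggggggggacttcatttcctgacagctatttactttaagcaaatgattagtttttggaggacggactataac
Cspg4, chr9:56864854-56865153, plus strand: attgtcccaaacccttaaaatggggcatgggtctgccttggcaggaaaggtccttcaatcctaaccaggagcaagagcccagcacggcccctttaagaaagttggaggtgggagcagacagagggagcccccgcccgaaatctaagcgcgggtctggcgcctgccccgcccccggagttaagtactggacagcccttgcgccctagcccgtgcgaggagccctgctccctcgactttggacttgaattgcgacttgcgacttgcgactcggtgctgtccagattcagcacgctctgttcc

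The Mag window held 1 SOX core from base -126 to -121 and 1 MYRF site from -68 to -62, counted from the transcript start. The Cnp window held 1 SOX core from -167 to -162 and 1 MYRF site from -81 to -75. In Opalin the matches were 2 SOX cores and 1 MYRF site, of which 1 core and the MYRF site lay after the start. Neither motif was found in the Pdgfra and Cspg4 windows, which says only that these letters are not in these 300 bases. Of the 34 listed genes, 23 had at least 1 window, with 32 windows in all. A SOX core was in 14 of the 32 (43.8%), against 28.6% of the 32851 windows of all genes. Among the 17 windows of myelin genes, 8 held a SOX core. The MYRF letters were in 6 of 32 (18.8%), against 7.10% of all windows, and 5 of those 6 were among the 17 windows of myelin genes. An E-box of the form CAGCTG, the kind of site that Olig1 and Olig2 bind, was in 2 of 32 (6.25%), against 16.3% of all. These matches are a description of letters and not of binding.

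The dissections were checked against markers of other cells. All 10 hypothalamic neuron genes on a list that includes Hcrt, Pmch, Oxt and Agrp were higher in hypothalamus than in prefrontal cortex by limma at an adjusted p under 0.05, with a median difference of 7.21. The same 10 were also all lower in amygdala than in hypothalamus. Of the 10, 8 were higher in amygdala than in prefrontal cortex and 0 lower, with a median difference of 2.475. Of all genes, 12% were higher and 10% lower in that contrast. As a list, the hypothalamic genes thus had the region order given below for most oligodendrocyte genes, and the reason was not tested. The amygdala arrays showed well above background between 63.9% and 69.6% of the 43379 noncontrol spots, the hypothalamus arrays between 59.8% and 62.2%, and the prefrontal cortex arrays between 60.9% and 65.0%. All 30 tested oligodendrocyte genes were well above background on every array that gave a value. The spot of Mag on the prefrontal cortex RFR array was marked as an outlier by the scanner software and left out, so Mag rests on 8 arrays. The array of amygdala under CR stands apart because it was alone on its slide and in its scan.

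The region comparison asked how the lineage is distributed over the 3 dissected areas, with the 3 diets of a region in the place of replicates. Oligodendrocyte genes were highest in hypothalamus, intermediate in amygdala and lowest in prefrontal cortex. This order of the 3 region means held for 28 of the 30 genes, against 32.7% of all genes tested, and included all 14 myelin genes, all 4 transcription factors and all 8 enriched genes. In 17 of the 30, no array of one region overlapped with those of the next in that order, against 7.92% of all genes. The exceptions to the order of means were Pdgfra and Cspg4, the defining genes of precursors, which both had their highest mean in amygdala.

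**Figure D1:**
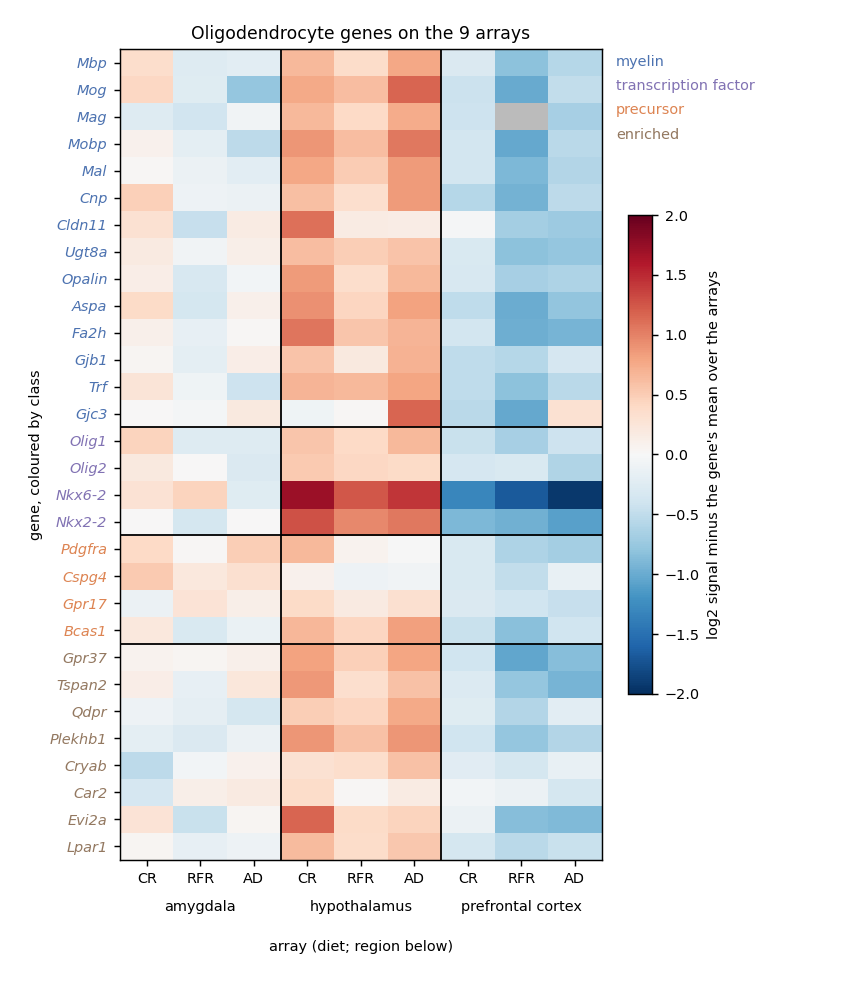
Log2 signal of the 30 tested oligodendrocyte genes on the 9 arrays, each as its difference from the gene's own mean, with genes in rows (coloured by class) and arrays in columns by region and diet. Red is above and blue below the mean, and grey is the Mag spot that was left out. The hypothalamus columns are red and the prefrontal cortex columns blue in most rows. Pdgfra and Cspg4 are also blue in prefrontal cortex, but their highest mean is in amygdala.

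Between amygdala and hypothalamus, 24 of the 30 genes passed limma at an adjusted p under 0.05, where 29.3% of all 12619 genes did. In amygdala 23 were lower, against 15.7% of all genes, and 1 was higher, against 13.5%. The 1 that was higher was Cspg4. Without the RFR pool of mice the count dropped to 7, where 11.3% of all genes passed, and without the CR or the AD pool it was 17 and 16 (18% and 23.1% of all genes). Against prefrontal cortex, 20 of the 30 were higher in amygdala and 0 were lower, against 12% and 10% of all genes. That count was 3 without the RFR pool, 8 without the CR pool, 7 with slide as a term in the fit and 11 without a term for the pool, where 7.11%, 12.6%, 11% and 19.2% of all genes passed in either direction. Hypothalamus exceeded prefrontal cortex in 28 of the 30, where 26.5% of all genes were higher, and the count ran from 24 to 29 when a pool was left out, with 27.7% to 41.1% of all genes passing in either direction. The 2 genes that did not pass were Cspg4 (adjusted p = 0.0705) and Car2 (adjusted p = 0.142). Without the amygdala CR array, an alternative added after the data had been seen, the 3 counts were 22, 16 and 29. Of all genes, 25.9%, 20.2% and 52.9% then passed in either direction.

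**Figure D2:**
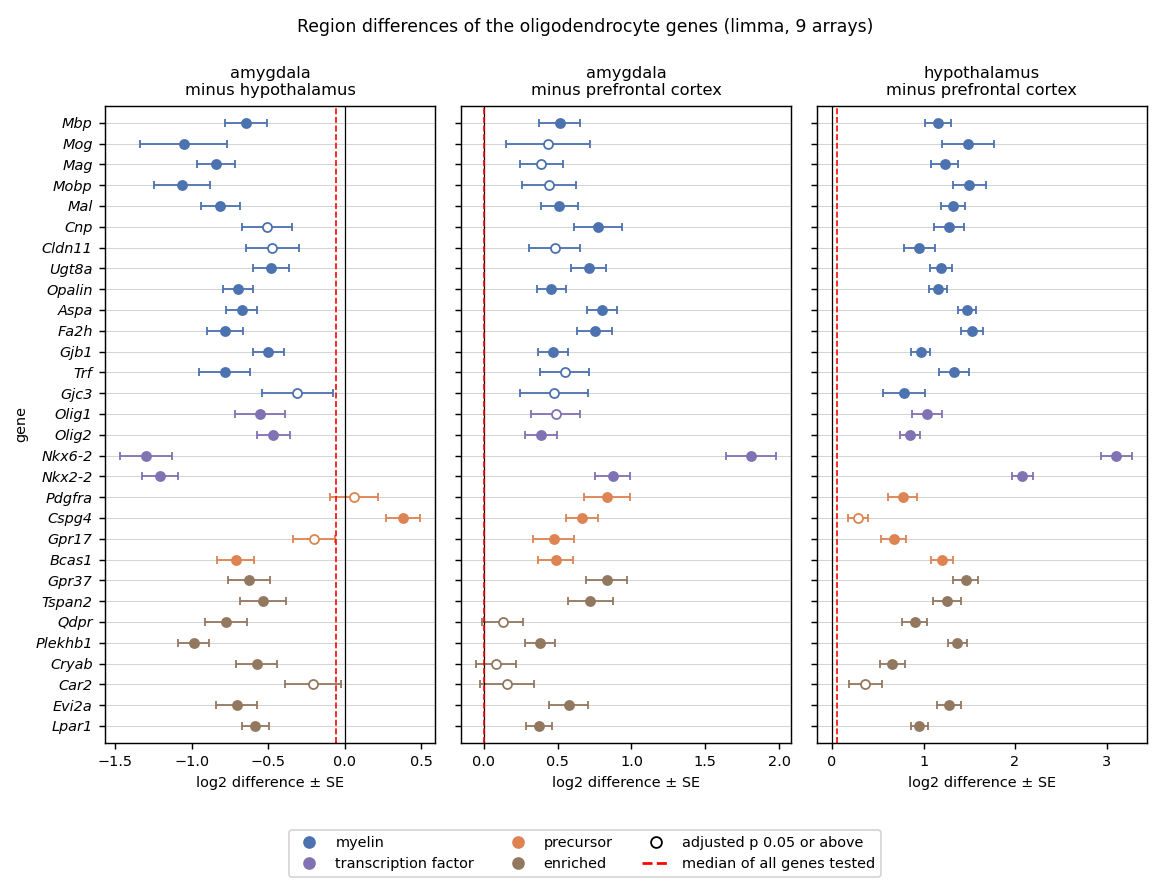
Region differences of the 30 genes in log2 units with the standard error from limma, in 3 panels of which the group named first is on top of the difference. Filled points passed an adjusted p of 0.05, open points did not, and the red dashed line is the median of all genes tested. In the left panel Cspg4 and Pdgfra lie right of 0 and all other genes left of it, and in the right panel every gene lies right of 0.

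The transcription factors showed the widest range. Nkx6-2, a homeobox factor of maturing oligodendrocytes, measured 3.30 (CR), 3.46 (RFR) and 2.77 (AD) in amygdala. Under CR, RFR and AD it had 4.72, 4.26 and 4.44 in hypothalamus, and 1.70, 1.33 and 1.08 in prefrontal cortex. The 3 regions did not overlap, and the gap between them exceeded the spread between diets. It was lower in amygdala than in hypothalamus by limma (difference -1.30, SE 0.17, adjusted p = 0.00184) and higher in amygdala than in prefrontal cortex (1.81, adjusted p = 0.000529). The difference of hypothalamus over prefrontal cortex was 3.10, an 8.59-fold higher signal and the largest of the 30 genes.

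Nkx2-2, a homeobox factor of differentiating oligodendrocytes that is also known from ventral neural progenitors, had the second largest difference. Its log2 signal under CR, RFR and AD was -1.85, -2.20 and -1.84 in amygdala, -0.58, -0.88 and -0.80 in hypothalamus, and -2.75, -2.81 and -2.94 in prefrontal cortex. Again no 2 regions overlapped. The limma differences were -1.21 for amygdala minus hypothalamus (adjusted p = 0.000505), 0.87 for amygdala minus prefrontal cortex (adjusted p = 0.00239) and 2.08 for hypothalamus minus prefrontal cortex (adjusted p = 1.6e-05).

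Olig1 and Olig2 encode the basic helix-loop-helix factors that specify the lineage and are made in precursors and mature cells alike. Olig1 measured 2.92, 2.22 and 2.20 in amygdala under CR, RFR and AD, then 3.02, 2.86 and 3.11 in hypothalamus and 2.02, 1.80 and 2.05 in prefrontal cortex. The amygdala CR array overlapped with hypothalamus, and the other 2 amygdala arrays lay close to prefrontal cortex. Olig1 was lower in amygdala than in hypothalamus (-0.55, adjusted p = 0.0448) and higher in hypothalamus than in prefrontal cortex (1.04, adjusted p = 0.00202), and it did not pass between amygdala and prefrontal cortex (0.49, adjusted p = 0.0822). Olig2 had -0.32, -0.51 and -0.80 in amygdala under CR, RFR and AD, 0.00, -0.10 and -0.14 in hypothalamus, and -0.85, -0.83 and -1.12 in prefrontal cortex. It passed in all 3 contrasts, with differences of -0.47, 0.39 and 0.85, and its spread over diets was narrowest in hypothalamus.

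Among the 14 myelin genes, 11 were lower in amygdala than in hypothalamus, against 15.7% of all genes. In amygdala 8 were higher than in prefrontal cortex, against 12% of all genes. All 14 were higher in hypothalamus than in prefrontal cortex, against 26.5% of all genes. The median differences of the myelin genes were -0.69, 0.50 and 1.25, against -0.06, 0.00 and 0.05 for all genes tested. Fa2h, which makes the hydroxylated fatty acids of myelin lipids, measured -0.41, -0.67 and -0.49 in amygdala under CR, RFR and AD, 0.55, 0.04 and 0.17 in hypothalamus, and -0.88, -1.50 and -1.45 in prefrontal cortex. Its regions were fully separate, and it had the largest difference of any myelin gene between hypothalamus and prefrontal cortex (1.53, SE 0.12, adjusted p = 6.12e-05). It was lower in amygdala than in hypothalamus (-0.78, adjusted p = 0.00323) and higher in amygdala than in prefrontal cortex (0.75, adjusted p = 0.00465).

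Mobp, a structural protein of compact myelin, had 0.87, 0.59 and 0.27 in amygdala, 1.67, 1.40 and 1.84 in hypothalamus, and 0.41, -0.25 and 0.25 in prefrontal cortex under CR, RFR and AD. Hypothalamus was above both other regions on every array, and amygdala and prefrontal cortex overlapped. The limma differences were -1.06 for amygdala minus hypothalamus (adjusted p = 0.00557), 0.44 for amygdala minus prefrontal cortex (adjusted p = 0.142) and 1.50 for hypothalamus minus prefrontal cortex (adjusted p = 0.000567).

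Mog, a protein of the outermost myelin surface, varied between the diets of a region. It had -1.24, -1.90 and -2.43 in amygdala under CR, RFR and AD, against -0.90, -1.03 and -0.48 in hypothalamus and -2.07, -2.65 and -2.14 in prefrontal cortex. The amygdala AD value was below 2 of the 3 prefrontal cortex values. Hypothalamus was higher than prefrontal cortex by 1.49 (SE 0.28, adjusted p = 0.00451) and amygdala lower than hypothalamus by limma (-1.05, adjusted p = 0.0309), and the difference of 0.43 between amygdala and prefrontal cortex did not pass (adjusted p = 0.332).

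Aspa, the aspartoacylase that frees acetate for lipid synthesis in oligodendrocytes, had 0.69, -0.05 and 0.40 in amygdala, 1.22, 0.74 and 1.10 in hypothalamus, and -0.20, -0.68 and -0.48 in prefrontal cortex under CR, RFR and AD. Its regions did not overlap. It passed in all 3 contrasts, with differences of -0.67, 0.80 and 1.47. The other 10 myelin genes (Mbp, Mag, Mal, Cnp, Cldn11, Ugt8a, Opalin, Gjb1, Trf and Gjc3) had differences between hypothalamus and prefrontal cortex from 0.78 for Gjc3 to 1.33 for Trf, and each passed. Cnp (adjusted p = 0.0566), Cldn11 (0.0821) and Gjc3 (0.362) were the 3 myelin genes that did not pass between amygdala and hypothalamus.

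**Figure D3:**
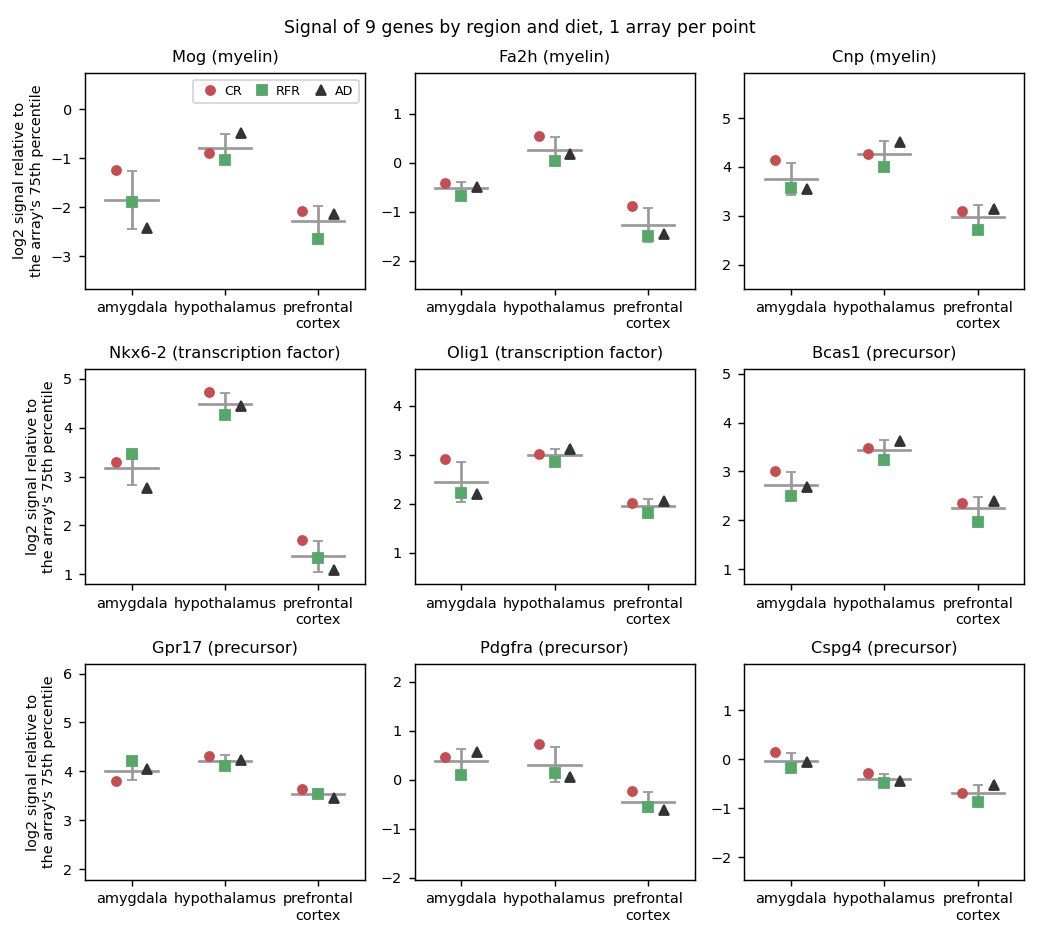
Log2 signal of 9 genes (3 myelin genes, 2 transcription factors and 4 precursor genes) by region, with 1 point per array for CR, RFR and AD and a grey bar for the mean and SD of the 3 arrays of a region. All panels span the same range of log2 units. Mog, Fa2h and Nkx6-2 are highest in hypothalamus, and Pdgfra and Cspg4 are as high or higher in amygdala.

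The precursor genes divided. Pdgfra measured 0.47, 0.09 and 0.57 in amygdala under CR, RFR and AD, 0.73, 0.14 and 0.07 in hypothalamus, and -0.23, -0.54 and -0.61 in prefrontal cortex. Amygdala and hypothalamus overlapped and both were above prefrontal cortex. The limma difference of amygdala minus hypothalamus was 0.06 (SE 0.16, adjusted p = 0.796), while amygdala minus prefrontal cortex was 0.84 (adjusted p = 0.0099) and hypothalamus minus prefrontal cortex 0.77 (adjusted p = 0.00602).

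Cspg4 had 0.15, -0.17 and -0.07 in amygdala, -0.29, -0.49 and -0.45 in hypothalamus, and -0.69, -0.87 and -0.53 in prefrontal cortex, in the order CR, RFR and AD. Every amygdala array was above every hypothalamus array. It was higher in amygdala than in hypothalamus (0.38, SE 0.11, adjusted p = 0.041) and higher in amygdala than in prefrontal cortex (0.67, adjusted p = 0.00597). The difference of 0.29 between hypothalamus and prefrontal cortex did not pass (adjusted p = 0.0705). Both genes are also known outside the lineage, Pdgfra in fibroblasts and Cspg4 in pericytes. On a list of 10 meningeal and fibroblast genes, 5 were higher in amygdala than in hypothalamus and 0 lower, with a median difference of 0.95. Of all genes, 13.5% were higher and 15.7% lower. On a list of 10 endothelial and mural genes, none passed (1 had an unadjusted p under 0.05) and the median was 0.13. The part of these cells in the result was not tested.

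Gpr17, a receptor of cells about to differentiate, measured 3.81, 4.21 and 4.04 in amygdala, 4.31, 4.10 and 4.24 in hypothalamus, and 3.64, 3.53 and 3.46 in prefrontal cortex under CR, RFR and AD. Its amygdala and hypothalamus arrays overlapped, with a difference of -0.20 that did not pass (adjusted p = 0.316). It was higher than in prefrontal cortex in amygdala (0.47, adjusted p = 0.0497) and in hypothalamus (0.67, adjusted p = 0.00615). Bcas1, made in newly myelinating cells and kept in myelin, had 3.01, 2.50 and 2.68 in amygdala, 3.47, 3.23 and 3.63 in hypothalamus, and 2.36, 1.97 and 2.40 in prefrontal cortex. Its 3 regions did not overlap, and its differences of -0.71, 0.49 and 1.20 all passed, which 7 of the 14 myelin genes also did. Of all 12619 genes tested, 1313 passed in all 3 contrasts. Enpp6, an enzyme of newly formed oligodendrocytes, was well above background on 1 of 9 arrays and gives no level.

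Set side by side, the 4 precursor genes had median differences of -0.07 for amygdala minus hypothalamus, 0.58 for amygdala minus prefrontal cortex and 0.72 for hypothalamus minus prefrontal cortex. The myelin medians were -0.69, 0.50 and 1.25 in the same contrasts. The classes lay close together between amygdala and prefrontal cortex and apart in both contrasts with hypothalamus. The diets are given 1 by 1 as descriptions. For amygdala minus hypothalamus the myelin medians were -0.53 under CR, -0.66 under RFR and -0.89 under AD, and the precursor medians were -0.36, 0.03 and 0.09. The RFR and AD pairs lay on 1 slide each, and the CR pair did not. For amygdala minus prefrontal cortex the myelin medians were 0.52, 0.75 and 0.44 and the precursor medians 0.67, 0.65 and 0.52 in the same order. Under RFR and AD the classes were thus farther apart for amygdala minus hypothalamus than for amygdala minus prefrontal cortex, and under CR they were about equally close in both. For hypothalamus minus prefrontal cortex the myelin medians were 1.15, 1.32 and 1.37 and the precursor medians 0.82, 0.63 and 0.73, with the CR and AD pairs on 1 slide each. With 4 precursor genes, 1 gene decides such a median: Bcas1 alone was called lower in amygdala than in hypothalamus as most myelin genes were, and without the CR pool the precursor median of that contrast was 0.09.

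**Figure D4:**
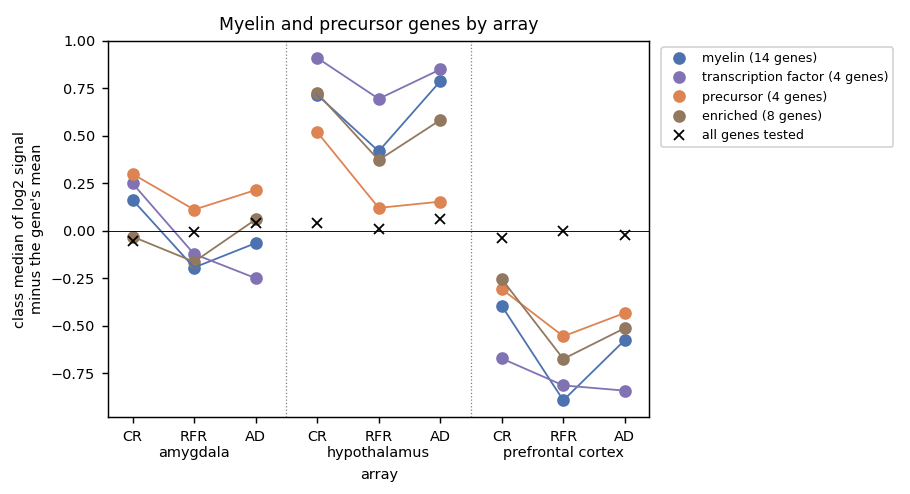
Median, over the genes of each class, of log2 signal minus the gene's own mean, on each of the 9 arrays, with diets side by side within a region and crosses for all genes tested. The myelin median was 0.42 to 0.79 on the hypothalamus arrays and the precursor median 0.12 to 0.52. On the amygdala arrays the precursor median (0.11 to 0.30) was above the myelin median (-0.19 to 0.16).

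The 8 enriched genes followed the myelin genes. Of them 7 were lower in amygdala than in hypothalamus, 5 were higher in amygdala than in prefrontal cortex, and 7 were higher in hypothalamus than in prefrontal cortex. The shares of all genes in these directions were 15.7%, 12% and 26.5%. Gpr37, a receptor made in myelinating cells, measured 1.18, 1.16 and 1.21 in amygdala under CR, RFR and AD, 1.93, 1.60 and 1.91 in hypothalamus, and 0.71, 0.08 and 0.27 in prefrontal cortex. The amygdala values lay close together and apart from both other regions. It passed in all 3 contrasts (-0.63, 0.83 and 1.46). Plekhb1, a membrane-bound pleckstrin homology protein, had 4.66, 4.56 and 4.72 in amygdala, 5.73, 5.43 and 5.74 in hypothalamus, and 4.46, 4.08 and 4.26 in prefrontal cortex. Its amygdala arrays were nearer to prefrontal cortex than to hypothalamus, with differences of -0.99 (adjusted p = 0.00067), 0.38 (adjusted p = 0.0381) and 1.37 (adjusted p = 5.46e-05). Tspan2, a tetraspanin, Evi2a and Lpar1, a lysophosphatidic acid receptor, passed in all 3 contrasts too. Qdpr, which recycles tetrahydrobiopterin, and Cryab, a small heat shock protein, passed against hypothalamus only of the amygdala contrasts, with amygdala minus prefrontal cortex at 0.13 and 0.08. Car2, a carbonic anhydrase, passed in none, and its differences were -0.21, 0.16 and 0.36.

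A second probe was available for 15 of the listed genes, and 11 of these extra probes were well above background on all 9 arrays. Their differences had the sign of the probe used in 10 of 11 for amygdala minus hypothalamus, 10 of 11 for amygdala minus prefrontal cortex and 11 of 11 for hypothalamus minus prefrontal cortex. Mbp, the basic protein that holds compact myelin together, had 3 probes. Both probes of the RefSeq transcript NM_010777 were higher in hypothalamus than in prefrontal cortex, by 1.16 and 1.29, and lower in amygdala than in hypothalamus (differences -0.64 and -0.97). The probe annotated to transcript NM_001025245 had region means of 3.35 in amygdala, 3.24 in hypothalamus and 3.16 in prefrontal cortex, so its differences were 0.11, 0.19 and 0.08. This probe was one of the 2 exceptions in sign, and the other was the second probe of Cryab, with -0.13 for amygdala minus prefrontal cortex.

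Other genes of the lineage that are not among the 34 were counted from 2 further lists. Of 26 tested genes of myelinating cells, 16 were lower and 2 higher in amygdala than in hypothalamus (median -0.56). The shares of all genes were 15.7% and 13.5%. In amygdala 10 were higher and 2 lower than in prefrontal cortex (0.33), against 12% and 10% of all genes. In hypothalamus 20 were higher and 2 lower than in prefrontal cortex (0.90), against 26.5% and 2680 of 12619 genes. Klk6, a secreted protease of oligodendrocytes, was higher in hypothalamus than in prefrontal cortex by 3.15 (adjusted p = 2.94e-05), and Anln, a septin-binding protein, by 2.24 (adjusted p = 0.000424). Nipal4, a magnesium transporter, went the other way on the probe used, with -3.13 by limma (adjusted p = 1.44e-05). A dimmer probe of the same transcript, well above background on only 5 arrays, was higher in hypothalamus than in prefrontal cortex. Under CR, RFR and AD this dimmer probe had -4.45, -4.34 and -4.09 in hypothalamus and -5.33, -6.04 and -5.30 in prefrontal cortex. The reason for the opposite directions was not tested.

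Of 14 tested genes of precursors and newly formed cells, 5 were higher and 2 lower in amygdala than in hypothalamus (median 0.41). The shares of all genes were 13.5% and 15.7%. In amygdala 4 were higher and 1 lower than in prefrontal cortex (0.26), against 12% and 10% of all genes. In hypothalamus 4 were higher and 3 lower than in prefrontal cortex (0.20). These last counts were near those of all genes, 26.5% and 2680 of 12619. Bmp4, a signal made by committed precursors, was higher in amygdala than in hypothalamus by 0.89 (adjusted p = 0.0144). Tcf7l2, a factor of differentiating oligodendrocytes that some neurons also make, was lower there (-1.06, adjusted p = 0.00239) and higher in amygdala than in prefrontal cortex (0.94, adjusted p = 0.00453). The further lists kept the sign of the myelin differences in all 3 contrasts, and their precursor median between amygdala and hypothalamus lay above 0, where that of the 4 genes above was -0.07.

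Other cell types also differed between the dissections, as medians of 7 to 10 tested markers per list. Neuron genes had medians of 0.38 for amygdala minus hypothalamus, -0.17 for amygdala minus prefrontal cortex and -0.40 for hypothalamus minus prefrontal cortex. Astrocyte genes had -0.13, -0.02 and 0.37, and microglia genes 0.48, -0.16 and -0.67. Striatal genes (0.39, 1.71 and 0.72) and choroid plexus genes (0.05, 3.08 and 3.67) were lowest in prefrontal cortex. Trf, which encodes transferrin, is also made by the choroid plexus, and Cldn11 also by cells of the arachnoid. The part of these cells in the oligodendrocyte differences was not tested.

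The diet comparison asked whether restricted or alternating feeding went with a change in the lineage. No oligodendrocyte gene passed limma in any diet contrast: 0 of 30 for CR minus AD, where 0% of all genes passed, 0 of 30 for RFR minus AD, where 0.0158% did, and 0 of 30 for CR minus RFR, where 0.0158% did. At an unadjusted p under 0.05 there were 7, 4 and 14 of the 30, against 16.2%, 6.06% and 14.6% of all genes. Since the 3 arrays of a diet share 1 pool of mice, these p-values are too small. Without the amygdala, 4 of the 30 passed for CR minus AD, where 8.41% of all genes did: Cldn11 (0.83), Evi2a (0.74) and Fa2h (0.48) were higher under CR, and Gjc3 was lower (-1.05). The 3 diet contrasts share arrays with each other, so their values are given side by side and not as support for one another.

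CR minus RFR gave the most even picture. All 14 myelin genes had a positive difference, with a median of 0.40, against -0.01 for all genes tested. Of the 29 genes with a value on all arrays, 23 were higher under CR than under RFR in 3 of 3 regions, against 21.5% of all genes, and 12 of those 23 were myelin genes. In none of them were the 3 CR arrays clear of the 3 RFR arrays, against 3.61% of all genes. That count pools the regions, and it cannot decide about diet. The median of the 30 genes was 1.19 for hypothalamus minus prefrontal cortex, against 0.31 for CR minus RFR. The medians of the transcription factors, precursor genes and enriched genes were 0.23, 0.31 and 0.24.

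Within regions there is no test, only 1 array against 1. The myelin median of CR minus RFR was 0.31 in amygdala (14 of 14 positive), 0.27 in hypothalamus (13 of 14) and 0.52 in prefrontal cortex (13 of 13), against -0.06, 0.04 and -0.03 for all genes. The hypothalamus pair was the one that shared a slide. The medians of the 4 precursor genes were 0.35, 0.22 and 0.25. In the further lists, over regions, the 26 further myelin genes had a median of 0.29 (19 positive), and the 14 further precursor genes had -0.03 (6 positive), with -0.08, 0.07 and -0.07 in the 3 regions. Whether the classes differ was not tested. In the same 3 pairs, the medians of the endothelial and mural list were 0.10, 0.32 and 0.10, of the choroid plexus list -1.74, 0.19 and -0.27, of the meningeal list -0.18, 0.75 and -0.52, and of the neuron list 0.17, -0.04 and 0.08. The striatal list had a median of 0.36 in amygdala (9 of 10 positive), -0.03 in hypothalamus and -0.15 in prefrontal cortex. Over regions, 7 of 9 astrocyte genes and 5 of 8 microglia genes also had a positive difference (medians 0.10 and 0.13). Their part in the result was not tested.

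**Figure D5:**
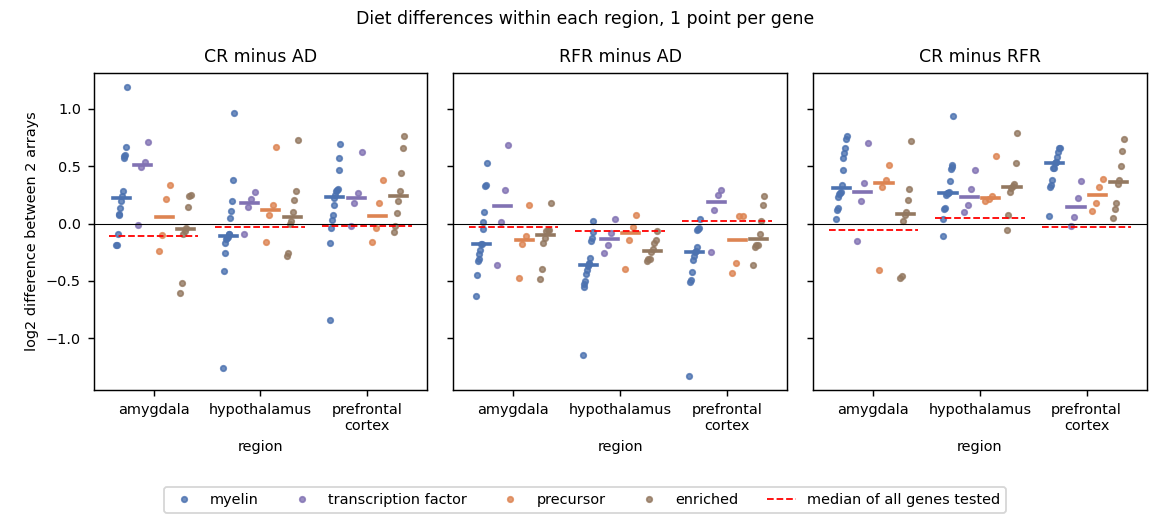
Log2 difference between 2 arrays of the same region for each of the 30 genes, in 3 panels for CR minus AD, RFR minus AD and CR minus RFR, with 1 point per gene, a short bar for the class median and a red dashed line for the median of all genes tested. In the right panel the myelin points lie above 0 in amygdala and prefrontal cortex, and in the middle panel most lie below 0 in hypothalamus and prefrontal cortex.

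Against AD, the 2 diets lay on opposite sides for myelin genes. For CR minus AD, 11 of 14 had a positive difference (median 0.20), and 9 of 30 genes were higher in 3 of 3 regions, against 12.4% of all genes. The regions did not follow each other: the myelin median was 0.22 in amygdala, -0.11 in hypothalamus and 0.23 in prefrontal cortex, and the median over regions was 0.07 without the amygdala. With slide as a term in the fit the median over regions was -0.09. The 3 AD arrays share a slide that holds no CR array. In the same contrast 3 of 9 astrocyte genes (median -0.12) and 4 of 10 neuron genes (-0.07) had a positive difference. For RFR minus AD, 0 of 14 had a positive difference (median -0.20), and 13 of 29 genes were lower in 3 of 3 regions, against 15.7% of all genes. The myelin median was -0.18 in amygdala, -0.36 in hypothalamus and -0.24 in prefrontal cortex, of which the prefrontal cortex pair shared a slide, and the median over regions was -0.30 without the amygdala and -0.31 with slide as a term. Genes of other cell types had the same sign: 0 of 9 astrocyte genes (median -0.22) and 0 of 10 neuron genes (-0.15) had a positive difference for RFR minus AD, and 5 of the 9 and 6 of the 10 were lower in 3 of 3 regions. All 7 choroid plexus genes had a positive one (median 0.46). Their part in the result was not tested. In amygdala the scaling mattered for CR minus AD: 19 of 30 genes were higher with the scaling used here, where the median of all genes was -0.11, and 24 of 29 were higher in the authors' deposited table, where it was 0.01.

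A few genes moved by more than their class, and 1 array stands behind each value. Mog was 1.19 higher in amygdala under CR than under AD (2.28-fold), the single gene of the 30 past 1 log2 unit there, against 3.22% of all genes. That count of 1 in 30 is near the share of all genes. Gjc3, which encodes a connexin of myelin sheaths, measured -1.60, -1.64 and -1.40 in amygdala under CR, RFR and AD, -1.69, -1.58 and -0.44 in hypothalamus, and -2.14, -2.62 and -1.30 in prefrontal cortex. In each region its AD array was the highest. Its differences from AD were -1.25 under CR and -1.14 under RFR in hypothalamus, and -0.84 and -1.32 in prefrontal cortex, against -0.19 and -0.23 in amygdala. It was the single gene of the 30 past 1 log2 unit in hypothalamus for CR minus AD (1.31% of all genes), in hypothalamus for RFR minus AD (0.682%) and in prefrontal cortex for RFR minus AD (0.929%).

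Gjc3 was also the 1 gene of the 30 whose CR arrays all lay below all AD arrays, against 5.34% of all genes. It was the 1 of 29 whose RFR arrays did, against 2.48%. Both counts are close to what these shares give in a list of this length. They also pool the regions, between which most of the 30 genes differed. The limma differences of Gjc3 were -0.76 for CR minus AD (SE 0.23, adjusted p = 0.233) and -0.90 for RFR minus AD (adjusted p = 0.615), and neither passed. It went against most other myelin genes under CR, of which 11 had a positive difference.

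Cldn11, the tight junction protein of myelin, had 1.79, 1.02 and 1.65 in amygdala under CR, RFR and AD, 2.59, 1.66 and 1.63 in hypothalamus, and 1.46, 0.80 and 0.76 in prefrontal cortex. The CR array was the highest in each region. Its limma difference was 0.79 for CR minus RFR (adjusted p = 0.166) and 0.60 for CR minus AD (adjusted p = 0.221), and neither passed. Evi2a, a membrane protein gene, had 1.32, 0.60 and 1.08 in amygdala, 2.21, 1.42 and 1.48 in hypothalamus, and 0.92, 0.18 and 0.16 in prefrontal cortex, again with CR highest in each region. Its CR minus RFR difference was 0.75 (SE 0.13, adjusted p = 0.147). In hypothalamus, where Cldn11 and Evi2a were 0.96 and 0.72 higher under CR than under AD, 9 of 10 meningeal genes were also higher (median 0.52), and in prefrontal cortex 1 of 10 was (median -0.68). Their part in the result was not tested.

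Aspa, whose values are given above, was higher under CR than under RFR by 0.74 in amygdala, 0.48 in hypothalamus and 0.48 in prefrontal cortex, with a limma difference of 0.57 (adjusted p = 0.147). Trf, which encodes the iron carrier transferrin, measured 2.37, 2.03 and 1.70 in amygdala under CR, RFR and AD, 2.79, 2.75 and 2.90 in hypothalamus, and 1.60, 1.28 and 1.57 in prefrontal cortex. Its amygdala array was highest under CR, and in hypothalamus the 3 diets lay close together. Trf was 0.67 higher in amygdala under CR than under AD, and its limma difference over regions was 0.19 (adjusted p = 0.578).

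Among transcription factors, 4 of 4 had a positive difference for CR minus AD and for CR minus RFR, and 2 of 4 for RFR minus AD. Among precursor genes the counts were 4 of 4, 3 of 4 and 1 of 4 in the same contrasts. Pdgfra was higher under CR than under RFR in 3 of 3 regions (0.43, adjusted p = 0.288), as were Cspg4 (0.23, adjusted p = 0.384) and Bcas1 (0.38, adjusted p = 0.242), and none passed. Gpr17 was higher in 2 of 3 regions, with a difference of -0.03. For CR minus RFR, 9 of 10 meningeal and fibroblast genes were higher in hypothalamus, against 1 of 10 in amygdala and 1 of 10 in prefrontal cortex. Pdgfra is also known in fibroblasts, and their part in its difference was not tested. Nkx6-2 was higher under CR than under AD in 3 of 3 regions (0.48, adjusted p = 0.265), and Olig2 was higher than under AD in 3 of 3 regions both under CR (0.30, adjusted p = 0.269) and under RFR (0.21, adjusted p = 0.875).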

How the data were processed

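Arrays of 1 colour (Cy3) were read by the authors with Agilent Feature Extraction 9.5.1.1, per the file headers. The processed signal deposited there is an intensity, background-corrected within an array and not scaled between arrays. The deposited median spot and background signals, used in an alternative, are intensities too. The deposited flags of other kinds (well above background, saturated, outlier) are 0 or 1. The authors also deposited values that are a ratio to the AD array of the region: after 1 constant per array, at least 99.2% lay within 0.01 log2 units of the scanner signals.

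Noncontrol spots were put on a log2 scale with the array's 75th percentile at 0. Outlier spots were dropped, spots of a probe were averaged, and of several probes of a gene the brightest by its mean over 9 arrays stood for the gene. Of 41174 probes, 22951 were named by RefSeq accession and 18223 were not. A gene was tested if well above background on at least 3 arrays with a value on at least 6. limma 3.58.1 in R 4.3.3 fitted region plus diet (4 residual degrees of freedom), with Benjamini-Hochberg adjustment over 12619 genes at 0.05. The 3 regions of a diet are 1 pool of mice, and diet is therefore also the block that pairs regions. The fit was tested on simulated data. Precision is limited by the number of arrays. Spots of probes printed 10 times had an SD of 0.051 to 0.076.

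Named in full are all precursor genes and transcription factors, and of the other classes the 6 genes with the largest region difference and the 6 with the largest diet difference within a region. Of each further list, up to 4 of the largest differences per contrast were eligible. Genes and lists were chosen with earlier results of these data known. Alternatives changed background correction, scaling, the source of the values, probe choice, filter, variance model, slide and pool terms, and the arrays used.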

Additional observations from a re-analysis of the deposited data

Results flagged for a closer look

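The 4 transcription factor genes had opposite medians for RFR minus AD in different regions. The median was 0.15 in amygdala and 0.18 in prefrontal cortex, against -0.14 in hypothalamus. Each value compares 1 array with 1, over Olig1, Olig2, Nkx6-2 and Nkx2-2, and the difference between regions was not tested.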

How the results depend on the processing

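In the region contrasts, every called oligodendrocyte gene kept its direction under every alternative run. The replicate block for regions is the diet term, which stands for the pool of mice. Without it, 20 of 30 genes were called for amygdala minus hypothalamus (26.2% of all genes), against 24 with it. For hypothalamus minus prefrontal cortex 27 were called (44.5% of all genes), against 28. The count for amygdala minus prefrontal cortex dropped to 11 of 30 (19.2% of all genes), against 20. That last count was 7 with slide as a fixed term, and slide as a random block was not needed. Leaving out 1 pool in turn gave 7 to 17 genes for amygdala minus hypothalamus, 3 to 16 for amygdala minus prefrontal cortex and 24 to 29 for hypothalamus minus prefrontal cortex. With 2 pools left the fit has fewer arrays. For hypothalamus minus prefrontal cortex the myelin median ran from 1.17 to 1.37 when a pool was left out. With the mean of all probes the precursor median there was 0.53, and the myelin median exceeded it by 0.77. Between amygdala and prefrontal cortex the further lists put the myelin median 0.0666 above the precursor median.

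For diets, every alternative called 0 oligodendrocyte genes except normexp background for CR minus RFR and fits without a region for CR minus AD. The normexp fit called 1 gene, Evi2a, where 0.38% of all genes passed. The fits without a region called 0 to 4 genes, where 0.00792% to 8.41% of all genes passed. In the other alternatives at most 0.317% of all genes passed. With slide as a fixed term the myelin median was -0.0919 for CR minus AD, the opposite sign, and -0.31 for RFR minus AD. The precursor median was then -0.0992 for RFR minus AD. For CR minus RFR it was 0.17, and 0.22 without the amygdala CR array. The precursor median of CR minus AD was 0.10 with quantile scaling and 0.17 in the authors' table, and ran from 0.0621 to 0.14 when a region was left out. The precursor median of RFR minus AD was -0.23 with probes averaged and -0.0912 in the authors' table, and ran from -0.22 to -0.11 when a region was left out, while the myelin median ran from -0.30 to -0.15.

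Within regions, in the authors' table CR minus AD had myelin and precursor medians of 0.37 and 0.20 in amygdala, and 0.0057 and 0.23 in hypothalamus. With normexp the myelin median of RFR minus AD in amygdala was -0.0381, and the precursor median of CR minus AD was -0.0465 in hypothalamus and -0.0429 in prefrontal cortex, both of opposite sign to the 0.12 and 0.0661 reported. With the mean of all probes, which brings in dim second probes of Pdgfra and Gpr17, the precursor median of CR minus AD was 0.48 in amygdala, -0.12 in hypothalamus and -0.18 in prefrontal cortex, and that of RFR minus AD was 0.0565, -0.26 and -0.45. Those of CR minus AD in hypothalamus and prefrontal cortex and of RFR minus AD in amygdala (-0.14 as reported) had the opposite sign. The myelin median of RFR minus AD in amygdala was then -0.0294. The causes were not tested. A precursor class of 4 genes and 1 array per region and diet limit all of these medians.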
